A study of Mus musculus with 8 samples.

Results

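Hmgcs1, Idi1, Fdps, Fdft1, Sqle, Lss and Cyp51 are 7 enzymes of cholesterol synthesis and targets of SREBP2, the transcription factor that turns this pathway on. Their levels were measured in mouse embryos grown in culture, of which some were exposed to trimetazidine (TMZ), a drug that blocks the last thiolase step in the β-oxidation of long-chain fatty acids. The genes were chosen by name, with earlier results of these data known. All 7 were assigned to an entry in both tables, which list 31899 entries for 8-cell embryos and 29202 for morulae. The ICR mice were 7 weeks old, and their embryos developed in KSOM medium. Per the labels TMZ was given at 100 µM at the 2-cell stage; that sentence stands on every sample alike, and the titles mark which samples are controls. Embryos were collected as 8-cell embryos 70 h after hCG, the hormone given to time ovulation, or as morulae 78 h after it. The treated samples carry the genotype label "TMZ inhibitor" and the controls the label "WT", no allele is named, and no vehicle is given for the controls. Each of the 4 groups, 8-cell control, 8-cell TMZ, morula control and morula TMZ, had 2 libraries, prepared from embryo mRNA that was amplified over its full length. In such whole-embryo samples fewer cells of a type and less RNA per cell cannot be told apart. The labels do not say whether the 2 libraries of a group came from separate matings, so p-values measure only the spread between these libraries. The paper calls the replicates of a group biologically independent, but its methods and its legend differ on how many there were.

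Cholesterol is built from acetyl-CoA. The mevalonate steps make isoprenoid units, which are joined to farnesyl diphosphate and then to squalene, and squalene is closed into lanosterol and trimmed to cholesterol. When membrane sterol is low, the escort protein SCAP carries SREBP2 from the endoplasmic reticulum to the Golgi, where proteases release its active part, and INSIG proteins hold this complex back when sterol is plentiful. Farnesyl diphosphate also feeds side branches to prenylated proteins, dolichol and ubiquinone, and oxysterols act through the LXR receptors on cholesterol export. Acetyl-CoA is at once the start of this pathway and the end product of β-oxidation, the process that TMZ inhibits.

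The tables held FPKM, that is, fragments scaled to the length of the gene and to the total of the library, and no gene names. Entries were named from their order and recovered gene length, with a posterior probability that the name is right. It was 0.973 to 0.997 for Hmgcs1 in the 2 tables, and rounded to 1 for the other 6 genes in both. In this each table was informed by the other. For Hmgcs1 the 8-cell table alone put another gene first for the entry, and the morula table alone gave 0.977. The naming model was settled after Hmgcs1 had fallen short, so its posterior is no independent support for the name. For Idi1, Fdft1 and Lss, as many entries as reference genes lay between the nearest entries of exactly reference length: 2, 1 and 3. Those neighbours were named by the same naming model, so the equal counts are no independent check of the place. For Hmgcs1 there were 9 reference genes for 1 or 2 entries, for Sqle 20 for 16 entries in both tables, for Fdps 14 for 12 entries in the 8-cell table and 11 in the morula table, and for Cyp51 18 reference genes for 17 entries in the 8-cell table and 23 for 20 in the morula table. Hmgcs1 is therefore the least certain name. The reference lengths left out vM39 transcripts with an Ensembl number above 250000. The recovered length equalled this reference length for Idi1 (3505 bases). It was shorter for the others, from 10787 against 10823 bases for Lss to 4415 against 5453 bases for Cyp51. With all vM39 transcripts the exons cover more, at 3549 bases for Idi1, 5937 for Cyp51 and 8885 for Sqle, whose recovered length was 5546.

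In GRCm39 the genes lie at chr13:120151915-120170470 (Hmgcs1, plus strand), chr13:8935537-8942487 (Idi1, plus strand), chr3:89000888-89019213 (Fdps, minus strand), chr14:63382189-63417027 (Fdft1, minus strand), chr15:59186869-59203043 (Sqle, plus strand), chr10:76367298-76392976 (Lss, plus strand) and chr5:4123416-4154751 (Cyp51, minus strand). Values are summed over all exons of a gene, untranslated parts included. Of the 31-base stretches of Idi1 exons 68.8% occur elsewhere in the genome, against 2.40% (Cyp51) to 17.5% (Fdft1) for the other 6 genes, so Idi1 is the member most exposed to how reads with several matches were treated. Exons of other genes on the opposite strand cover 28.3% of the exonic bases of Cyp51, among them exons of Akap9, and 24.8% of those of Fdft1, from Ctsb. The strand setting of the counting is not given in the sources used here, and without strand such reads cannot be told apart. Akap9 stood between 0.0515 and 0.363 FPKM in all 8 libraries. Ctsb stood between 29.3 and 90.4 FPKM. The shares above are over all exons of GENCODE vM39, 5937 bases for Cyp51 and 4779 for Fdft1. The recovered lengths are shorter, at 4415 and 4116 bases, and the shares within the exons counted are not known.

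RefSeq promoters (250 bases before to 50 after the start, table build GRCm38.p6) were at hand for Hmgcs1, Idi1, Cyp51 and Lss, and each matched GRCm39 once. For Sqle, Fdft1 and Fdps no promoter was at hand. SREBP2 binds sterol elements, usually next to sites of the factors NF-Y (CCAAT) and Sp1 (GGGCGG). These letters and TCACNCCAC, a form of the sterol element, were searched on both strands, and no matches overlapped one another. Sterol elements spelled otherwise were not searched for, so a promoter without TCACNCCAC may still hold one. Hmgcs1 alone of the 4 held TCACNCCAC, at position -137 from the start, on the plus strand of the promoter, and 1.24% of all 32851 promoters of this length hold it. CCAAT stood in all 4, against 37.4% of all promoters, and GGGCGG in all 4, against 35.7%. The letters CACGTG, bound by SREBP proteins too, stood in none of the 4 and in 7.15% of all. The Hmgcs1 stretch is shown because it holds TCACNCCAC, and the Cyp51 stretch because Cyp51 differed most of the members in 8-cell embryos under TMZ. They end before the first base that GENCODE vM39 or RefSeq gives as transcribed, at chr13:120151637-120151886 on the plus strand and chr5:4154752-4154947 on the minus strand of GRCm39, and capitals mark the matches.
Hmgcs1: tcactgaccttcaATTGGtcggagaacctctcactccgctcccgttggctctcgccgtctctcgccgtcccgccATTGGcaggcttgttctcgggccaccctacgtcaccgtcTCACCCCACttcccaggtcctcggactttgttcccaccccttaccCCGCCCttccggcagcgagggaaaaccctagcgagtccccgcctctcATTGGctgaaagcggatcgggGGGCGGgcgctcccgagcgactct
Cyp51: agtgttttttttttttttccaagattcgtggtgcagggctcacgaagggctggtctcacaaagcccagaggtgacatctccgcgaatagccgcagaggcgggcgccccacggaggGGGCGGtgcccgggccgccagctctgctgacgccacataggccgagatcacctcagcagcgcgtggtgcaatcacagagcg
The Hmgcs1 stretch carries 6 matches. Of the letters searched, the Cyp51 stretch carries 1 match, a GGGCGG at position -135. Its CCAAT at position -29 lies within the stretch that vM39 counts as transcribed.

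Library totals ran from 31672356 to 64814423 fragments, the largest being TMZ library B of the 8-cell stage. As 1 header stands over both TMZ columns for 8-cell embryos, their libraries carry no number and are named A and B. Replicates correlated at 0.942 (8-cell TMZ, the lowest) to 0.981 (morula TMZ) over 9375 genes, on the log2(FPKM + 1) scale. Of the 12 embryo markers looked for, 11 were assigned in 8-cell embryos and 10 in morulae, of which 8 and 9 had a mean of at least 1 FPKM. Pou5f1, Nanog, Klf5 and Krt18 were among them, while Sox2 was at or near 0 in all 8 libraries. Of the 13 markers of cumulus and granulosa cells, the steroid-making cells around the egg, 7 and 6 were assigned, and Amhr2 alone reached a mean of 1 FPKM. Of the fibroblast and blood markers Hba-a1 stood at 2.46 to 11.3 FPKM in 8-cell embryos, and the other 4 assigned there were near 0.

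The levels of the 7 genes covered a wide range. They are scaled to the length of all exons of a gene, not of the transcript expressed, so their order depends in part on these lengths. Lss, scaled to 10787 bases, had 1206 and 613 fragments in 8-cell control replicates 1 and 2. Cyp51, scaled to 4415 bases, had 1061 and 360 there, fewer than Lss, though its FPKM was higher. The level of Idi1 also depends on how reads with several matches were treated. In 8-cell control embryos Fdft1 (squalene synthase, the first step committed to sterols) was highest, at 127 ± 14.6 FPKM (SD, n = 2), above 94.0% of the 10021 entries tested. Fdps, which makes farnesyl diphosphate, followed at 37.1 ± 4.61 FPKM (SD, n = 2). Hmgcs1 (HMG-CoA synthase, early in the mevalonate steps), Idi1 (which interconverts the isoprenoid units) and Sqle (squalene epoxidase) stood close together, at 11.9 ± 1.72, 11.04 ± 0.349 and 9.47 ± 3.05 FPKM (SD, n = 2). Cyp51, the demethylase of lanosterol, had 4.20 ± 2.39 FPKM (SD, n = 2), and Lss, which closes the lanosterol rings, 2.24 ± 0.699 FPKM (SD, n = 2). Fdft1 lay above Fdps, and Fdps above the other 5, without overlap in any library of either stage. The order of Hmgcs1, Idi1 and Sqle was not resolved in 8-cell controls, since their libraries overlapped. These levels rest on 212 (Cyp51, 8-cell TMZ library A) to 39083 (Fdft1, 8-cell TMZ library B) fragments per gene and library.

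**Figure D1:**
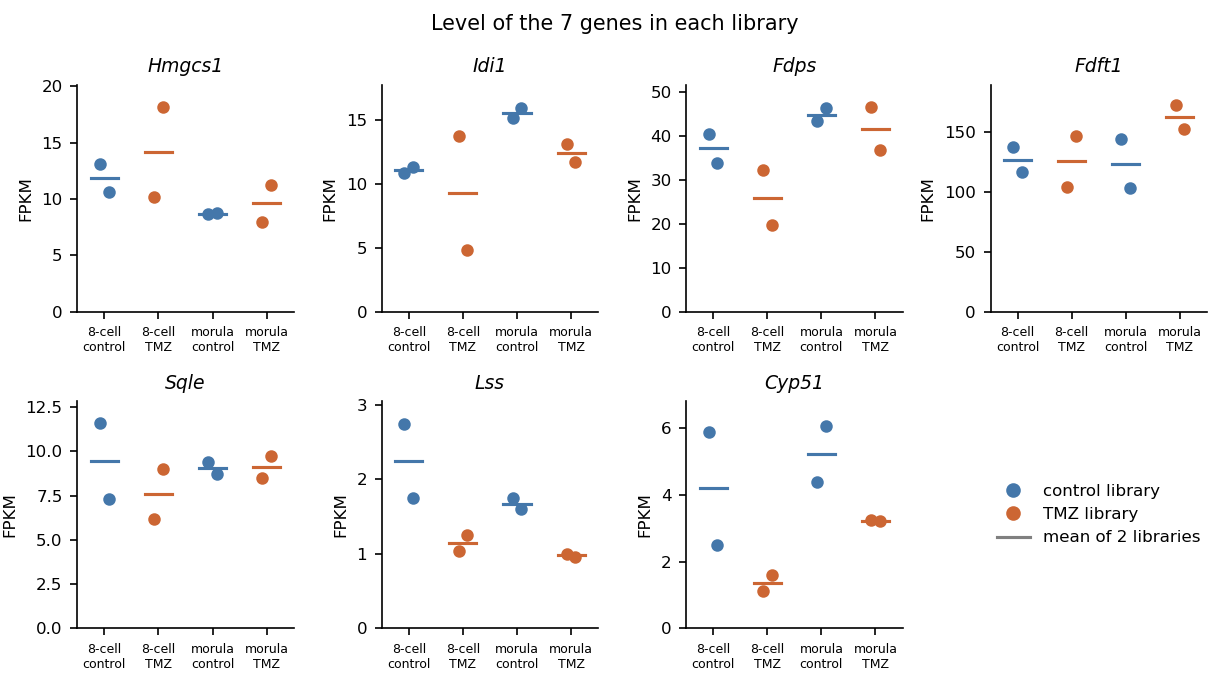
FPKM of each of the 7 genes (y axis from 0, a scale per panel) in the 2 control and 2 TMZ libraries of each stage (x axis); points are libraries and bars the mean of 2. Lss and Cyp51 have both TMZ libraries below both control libraries at each stage, and the 8-cell TMZ libraries of Idi1 lie on either side of the controls.

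The first comparison asked how these genes differed under TMZ in 8-cell embryos. Of the 7 genes Cyp51 fell past the study's threshold (a log2 fold change beyond 0.5 with an unadjusted P under 0.05), and none rose past it. Of all 10021 entries tested, 4.96% were lower and 1.35% higher past it, so 1 of 7 is not far from the background. No member, and no entry in the table, had an adjusted p under 0.05 (limma, Benjamini-Hochberg); 632 entries had an unadjusted P under 0.05, and the smallest adjusted p was 0.154. The median log2 fold change of the 7 genes was -0.38, against -0.19 for all entries. With 6 of 7 below 0, and 69.1% of all entries below 0, this table was shifted as a whole: after median-ratio scaling the median of all entries was 0.02 and that of the 7 genes -0.15.

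Cyp51 had 5.88 and 2.51 FPKM in control replicates 1 and 2, and 1.12 and 1.59 FPKM in TMZ libraries A and B. The TMZ libraries lay below both controls, but the controls themselves differed by more than the lower of them did from either TMZ library. The log2 fold change on the log2(FPKM + 1) scale was -1.07 (SE 0.45, adjusted p = 0.771, limma), and the ratio of the mean FPKM was 0.322. The call was lost without control replicate 1 (log2 fold change -0.59), without TMZ library A (-0.93) and after median-ratio scaling (-0.90), and also with no filter on low values. The cumulus and granulosa markers were lower under TMZ as well, with a summed level of 14.4 to 19.9 FPKM in controls and 8.41 to 8.96 FPKM under TMZ, nearly all of it Amhr2. The other 6 assigned markers each had a mean under 1 FPKM, Nr5a1 being at 0 in all 4 libraries, and the part of these cells in the result was not tested. Maternal oocyte transcripts, 9 of 9 assigned, were lower in sum too, at 36.5 to 41.3 FPKM in controls and 27.6 to 33.7 FPKM under TMZ, and the fibroblast and blood markers overlapped, at 6.93 to 11.5 and 2.54 to 7.16 FPKM. Their part was not tested either.

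Lss had 2.74 and 1.75 FPKM in controls and 1.04 and 1.25 FPKM under TMZ, again without overlap, and a log2 fold change of -0.58 that missed the threshold (SE 0.38, adjusted p = 0.802, limma). The value was -0.95 with voom on recovered fragments, -0.89 with a pseudocount of 0.1 FPKM and -0.36 without control replicate 1, all outside the threshold. Fdps had 40.4 and 33.9 FPKM in controls and 32.1 and 19.7 FPKM under TMZ. Its groups did not overlap either, library B being the low one, and the log2 fold change was -0.54 (SE 0.34, adjusted p = 0.801, limma). Without library A it was -0.87, past the threshold, without library B -0.20 and without control replicate 1 -0.41. Having both TMZ libraries below both controls was common in this table: it held for 3 of the 7 genes and for 29.6% of all entries. The reverse, both TMZ libraries above both controls, held for none of the 7 and for 8.09% of all entries.

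The other 4 genes overlapped between the groups. Hmgcs1 had 13.1 and 10.7 FPKM in controls and 10.1 and 18.1 FPKM in TMZ libraries A and B, a log2 fold change of 0.19 with a 95% interval from -0.68 to 1.06. Idi1 had 10.8 and 11.3 FPKM in controls and 13.7 and 4.84 FPKM under TMZ. Its control libraries were nearly equal, and the TMZ libraries lay on either side of them, so the log2 fold change of -0.38 (95% interval -1.44 to 0.68) averages opposite values; without library A it was -1.04, past the threshold, and without library B 0.29. Sqle had 11.6 and 7.31 FPKM in controls and 6.20 and 8.9996 FPKM under TMZ, and Fdft1 had 137 and 117 FPKM in controls and 105 and 147 FPKM under TMZ. Their log2 fold changes were -0.27 and -0.03, with 95% intervals from -1.17 to 0.62 and from -0.69 to 0.62, wide enough to hold a change in either direction. The value of Fdft1 turned positive after median-ratio scaling, at 0.22. Library A was the lower TMZ library for Hmgcs1, Sqle, Fdft1, Cyp51 and Lss, and library B for Idi1 and Fdps.

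The same question was asked in morulae, where the spread between libraries was smaller. None of the 7 genes passed the threshold in either direction, while 10.7% of 9685 entries were lower and 7.16% higher past it. With a pseudocount of 0.1 FPKM Cyp51 passed it, and with voom on recovered fragments Cyp51 and Lss did. The table held 1900 entries at an unadjusted P under 0.05 and 3 at an adjusted p under 0.05 (limma), none of them a member. The median log2 fold change of the 7 genes was -0.11, against -0.08 for all entries, and 4 of the 7 were below 0, against 57.3% of all entries.

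Cyp51 and Lss again had both TMZ libraries below both controls, and so had Idi1. Cyp51 had 4.40 and 6.07 FPKM in control replicates 1 and 2 and 3.25 and 3.22 FPKM in TMZ replicates 1 and 2. Its log2 fold change was -0.54 (SE 0.23, adjusted p = 0.258, limma), outside the threshold on P. Without control replicate 1 it was -0.74, past the threshold, and without control replicate 2 it was -0.35. Lss had 1.75 and 1.60 FPKM in controls and 1.001 and 0.957 FPKM under TMZ, a log2 fold change of -0.43 (SE 0.21, adjusted p = 0.298, limma). The replicates of Lss lay close together in each group, and the low level, near the pseudocount of 1 FPKM, makes the log2 value smaller than the ratio of the means, 0.584, would give. Idi1 had 15.1 and 15.9 FPKM in controls and 13.1 and 11.7 FPKM under TMZ, a log2 fold change of -0.30 (SE 0.18, adjusted p = 0.381, limma). The pattern of both TMZ libraries below both controls held for 33.3% of all entries, so 3 of 7 is near the background. The cumulus and granulosa markers summed to 8.11 to 13.9 FPKM in these controls and to 6.96 to 9.18 FPKM under TMZ, overlapping, and their part in the result was not tested. The maternal oocyte transcripts (15.4 to 21.9 FPKM in controls, 13.4 to 17.4 FPKM under TMZ) and the fibroblast and blood markers (5.40 to 8.07 and 4.12 to 5.94 FPKM) overlapped as well. Among the embryo markers 6 of the 9 with a mean of at least 1 FPKM had both morula TMZ libraries below both controls, namely Pou5f1, Nanog, Klf5, Tfap2c, Cdx2 and Krt8. Nanog, a pluripotency factor, had 25.3 and 27.5 FPKM in controls and 13.9 and 11.9 FPKM under TMZ, and Krt8, a keratin of the outer cells, had 19.5 and 22.7 FPKM in controls and 11.2 and 6.43 FPKM under TMZ. The sum of the embryo markers, nearly all of it Dppa3, was higher under TMZ, at 14300 to 17740 FPKM against 11060 to 13450 FPKM in controls, and the part of these differences in the result was not tested.

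Fdft1 had higher values under TMZ in morulae, with 144 and 104 FPKM in controls and 172 and 152 FPKM under TMZ. Both TMZ libraries lay above both controls, as they did for 22.3% of all entries, and the log2 fold change was 0.41 (SE 0.20, adjusted p = 0.302, limma). It was past the threshold after median-ratio scaling (0.50) and without control replicate 1 (0.64), and it was 0.17 without control replicate 2, the low control. Fdps had 43.4 and 46.2 FPKM in controls and 46.4 and 36.6 FPKM under TMZ, a log2 fold change of -0.11 (95% interval -0.56 to 0.33). Sqle had 9.38 and 8.74 FPKM in controls and 8.48 and 9.75 FPKM under TMZ, and Hmgcs1 8.68 and 8.73 FPKM in controls and 7.95 and 11.3 FPKM under TMZ. For these the log2 fold changes were 0.01 (95% interval -0.46 to 0.47) and 0.11 (95% interval -0.43 to 0.65), with the TMZ libraries on either side of the controls in both genes.

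Cyp51 and Lss, consecutive steps around lanosterol, had both TMZ libraries under both controls at each stage, 2 of 7 genes against 11.8% of the 8610 genes tested at both stages. Among all 41 listed genes of the pathway tested at both stages, the pattern held for 8, the other 6 being Mvk, Pmvk and Mvd (consecutive kinase and decarboxylase steps of the mevalonate section), Nsdhl (a later step from lanosterol), Dhdds (dolichol synthesis) and Coq2 (ubiquinone synthesis). These 6 were named because of their values. Both TMZ libraries lay above both controls at each stage for 1 listed gene, Mbtps2, a protease that releases SREBP proteins, and for 3.28% of all genes. The difference of the TMZ effect between the stages was tested in a fit of all 8 libraries over 9375 genes. No gene had an adjusted p under 0.05 (limma), 717 had an unadjusted P under 0.05, and none of the 42 listed genes tested was among these. For Cyp51 the morula effect minus the 8-cell effect was 0.53 on the log2 scale (SE 0.50, adjusted p = 0.914, limma), and for Fdft1 0.44 (SE 0.35, adjusted p = 0.886, limma). Stage and table are the same split, so they cannot be told apart here.

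**Figure D2:**
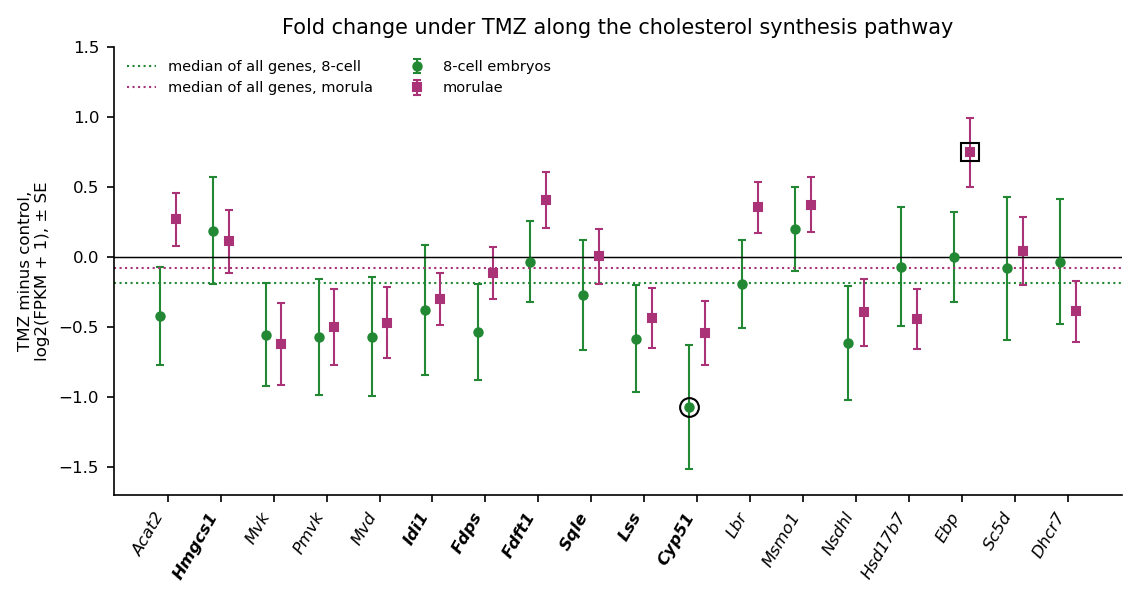
TMZ minus control on the log2(FPKM + 1) scale (y axis, ± SE from limma) for tested enzymes in pathway order (x axis, the 7 genes in bold), in 8-cell embryos (circles) and morulae (squares); dotted lines are the medians of all entries and black outlines mark values past the threshold. Cyp51 at -1.07 in 8-cell embryos and Ebp at 0.75 in morulae are outlined.

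The other enzymes of the pathway had a median near that of all entries in 8-cell embryos and values on both sides of 0 in morulae. Of 14 such enzymes, all assigned, 12 were tested at each stage, while the other 2 stayed under a mean of 1 FPKM in both tables. In 8-cell embryos none passed the threshold, 10 of 12 were below 0, and the median was -0.19. Both TMZ libraries lay below both controls for 4 of these 12 and above both for 0, against 29.6% and 8.09% of all entries. In morulae 6 were below 0 and 6 above it. There both TMZ libraries lay below both controls for 6 and above both for 5, against 33.3% and 22.3% of all entries. Ebp, the sterol isomerase of the late steps, was higher past the threshold, and none was lower past it. Ebp had 35.4 and 45.2 FPKM in controls and 54.9 and 83.8 FPKM under TMZ, a log2 fold change of 0.75 (SE 0.25, adjusted p = 0.205, limma). Without TMZ replicate 2 the call was lost. In 8-cell embryos Ebp had 52.7 and 49.3 FPKM in controls and 40.2 and 64.6 FPKM under TMZ, a log2 fold change of 0.00.

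The regulators of the pathway were near or below the limit of the test. Srebf2, which encodes SREBP2 itself, had 0.607 and 0.741 FPKM in 8-cell controls and 0.133 and 0.739 FPKM under TMZ, and 0.430 and 0.448 FPKM in morula controls and 0.161 and 0.286 FPKM under TMZ. Its morula groups did not overlap, but with a mean under 1 FPKM it entered no test. Scap had 0.937 and 0.992 FPKM in 8-cell controls and 0.768 and 0.612 FPKM under TMZ, and in morulae 0.590 and 0.921 FPKM against 0.422 and 0.428 FPKM. It was untested as well, with both TMZ libraries below both controls at each stage. Of the 9 genes of SREBP transport, cleavage and turnover 5 were tested at the 8-cell stage and 6 in morulae, and none passed the threshold at either. Insig2, a brake on SREBP transport, had log2 fold changes of -0.36 (SE 0.45) and -0.20 (SE 0.24) with overlapping groups.

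SREBP2 targets in uptake and feedback did not pass the threshold at either stage. Of the 7 genes, 5 were tested in 8-cell embryos (median -0.24, 4 below 0) and 4 in morulae (median -0.09, all below 0). In 8-cell embryos both TMZ libraries lay below both controls for 2 of the 5 and above both for 0. The shares of all entries there were 29.6% and 8.09%. In morulae both counts were 0 of 4, against 33.3% and 22.3% of all entries. Insig1, the sterol-sensitive brake, had 6.22 and 6.11 FPKM in 8-cell controls and 6.77 and 4.01 FPKM under TMZ, and 5.16 and 4.85 FPKM in morula controls and 4.53 and 4.93 FPKM under TMZ. Its log2 fold changes were -0.20 (SE 0.40) and -0.07 (SE 0.20).

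In the oxysterol, LXR and storage group, 4 of 9 genes were tested at each stage. In morulae 2 of the 4 were lower past the threshold, against 10.7% of all entries, and in 8-cell embryos 1 of the 4, with a doubtful name, was higher, against 1.35%. Those lower in morulae were Nr1h2 and Nr1h3, which encode the LXR receptors, and no other listed gene was lower past the threshold there. Nr1h2 had 15.3 and 19.7 FPKM in morula controls and 12.3 and 9.78 FPKM under TMZ, a log2 fold change of -0.62 (SE 0.22, adjusted p = 0.213, limma). Nr1h3 had 3.45 and 3.22 FPKM in controls and 1.81 and 2.00 FPKM under TMZ, a log2 fold change of -0.58 (SE 0.21, adjusted p = 0.219, limma). In 8-cell embryos their groups overlapped, with log2 fold changes of -0.18 (SE 0.36) and -0.16 (SE 0.53). Without morula control replicate 2, or without TMZ replicate 2, no listed gene was lower past the threshold. Cyp7b1, an oxysterol hydroxylase, was higher past the threshold in 8-cell embryos, with 17.4 and 4.21 FPKM in controls and 21.4 and 45.1 FPKM under TMZ, a log2 fold change of 1.72 (SE 0.59, adjusted p = 0.771, limma). Its recovered length, 2166 bases against 11107 in the reference, makes this name doubtful, the call was lost without control replicate 2 and with no filter on low values, and in morulae its log2 fold change was -0.35 with overlapping groups. The LXR targets Abca1, Abcg1 and Mylip reached at most 0.287 FPKM in any library.

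Of the 9 genes of the isoprenoid side branches, all tested at both stages, none passed the threshold. Their medians were -0.07 in 8-cell embryos and -0.09 in morulae, and their log2 fold changes ran from -0.54 to 0.62 and from -0.48 to 0.18. In all, 42 of 55 listed genes were tested at each stage. In 8-cell embryos 1 of the 42 was lower and 1 higher past the threshold, against 4.96% and 1.35% of all entries. In morulae 2 were lower and 1 higher, against 10.7% and 7.16% of all entries.

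**Figure D3:**
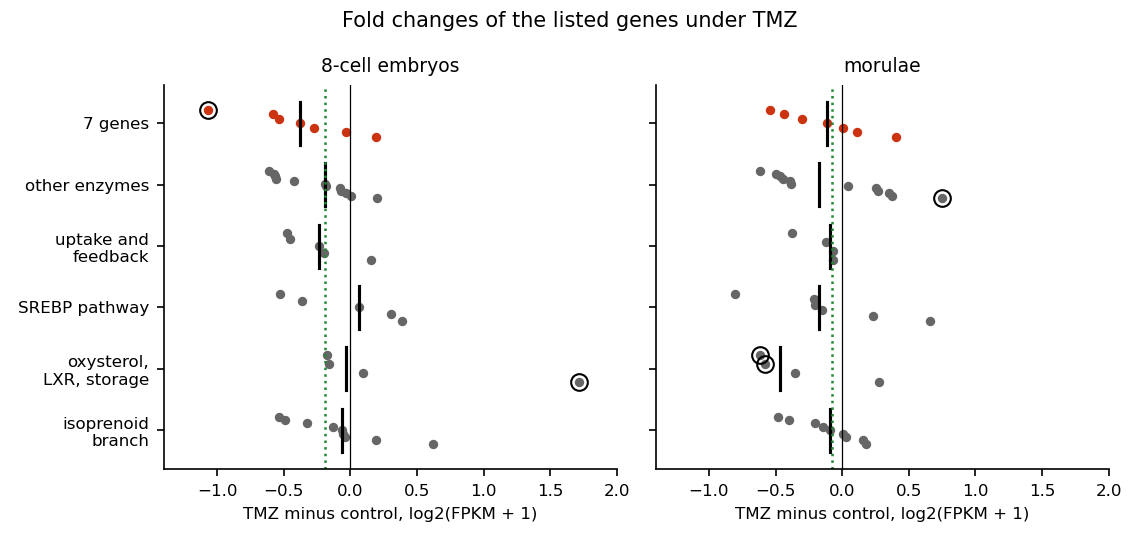
TMZ minus control on the log2(FPKM + 1) scale (x axis) for each tested gene of the 6 lists (rows), in 8-cell embryos (left) and morulae (right); thick bars are the median of a list, the dotted line is the median of all entries and outlines mark values past the threshold. The 7 genes have medians of -0.38 and -0.11, and the dotted lines stand at -0.19 and -0.08.

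The last comparison set 8-cell controls beside morula controls, as values without a test, since the stages are in separate tables. Called here means a difference over 1 on the log2(FPKM + 1) scale with no overlap of the libraries. None of the 7 genes met this, and of 9375 genes 2.91% were higher and 5.43% lower in morulae. The median difference of the 7 genes, morula minus 8-cell, was -0.03, against -0.08 for all genes. Idi1 (0.45 on the log2 scale) and Fdps (0.27) had both morula controls above both 8-cell controls, 2 of 7 genes against 22.1% of all, and Hmgcs1 (-0.40) and Lss (-0.26) had them below, 2 of 7 against 32.4%. Cyp51 (0.33), Sqle (-0.03), and Fdft1 (-0.05) overlapped between the stages. For Lss the separation was very small, its lower 8-cell control being at 1.7491 FPKM and its higher morula control at 1.7484 FPKM. Of the other listed genes Stard4, a carrier of cholesterol between membranes, was called higher in morulae, with 9.04 and 9.68 FPKM in 8-cell and 28.0 and 26.9 FPKM in morula controls, a difference of 1.46. Rnf139, a ubiquitin ligase of the endoplasmic reticulum, was called lower, with 4.71 and 6.58 against 2.75 and 1.63 FPKM, a difference of -1.07.

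**Figure D4:**
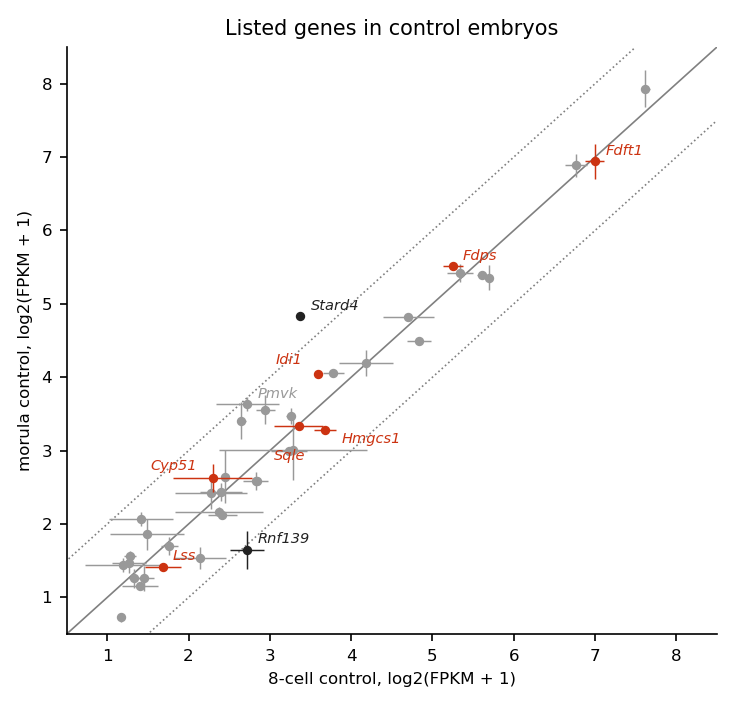
Mean log2(FPKM + 1) of the 42 listed genes tested in 8-cell controls (x axis) and morula controls (y axis), each point a gene with bars spanning its 2 libraries; the 7 genes are red, called genes black, the solid line marks equality and the dotted lines a difference of 1. All 7 lie within the dotted lines, and Stard4 (1.46) and Rnf139 (-1.07) lie outside.

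Over the 8 libraries the 7 genes did not share a pattern. The correlation of a gene with the mean z score of the other 6, on the log2(FPKM + 1) scale over 8 libraries of 4 groups, ran from -0.42 (Hmgcs1) through 0.00 (Idi1) and 0.07 (Fdft1) to 0.76 (Sqle) and 0.85 (Cyp51). It was 0.39 for Fdps and 0.46 for Lss. The mean z score was highest in 8-cell control replicate 1 (0.82) and lowest in 8-cell TMZ library A (-0.80), and in the morula libraries it lay between 0.08 and 0.37. Among 4238 other protein-coding genes with a mean of at least 5 FPKM, those most like this mean were Dync1i2 (r = 0.951), Spout1 (0.946), Fam168a (0.943), Wdr4 (0.942) and Calr (0.940), over the same 8 libraries. All of these were highest in 8-cell control replicate 1.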

How the data were processed

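The authors trimmed reads with fastp 0.23.4, aligned them to GRCm39 with STAR 2.7.9a, counted with featureCounts 2.0.6 and deposited FPKM per gene in a table per stage; annotation release and strand setting are not given in the sources used here. As the deposited unit is FPKM, limma was used in place of their count test. FPKM are whole fragments over length and library total, which gave totals and lengths (fragments at the smallest whole numbers: 97.5 to 98.1% of totals). Each entry was named by a pair hidden Markov model aligning lengths, in identifier order, to GENCODE vM39 exonic lengths of 54527 genes. Transcripts with an Ensembl number above 250000 were left out of these lengths. The posterior had to be at least 0.95, and each table was informed by the other. This exchange, and a model in which the authors' lengths rarely exceed the reference, were adopted after Hmgcs1 fell short. In total 27978 of 31899 and 25712 of 29202 entries were named; decoy genes drew a scaled 1.91% and 1.53% of expressed entries, and of entries whose gene was removed from the reference 30.4% and 28.9% went to another gene. Aligned separately, the tables disagreed in length for 17 of 21332 genes.

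TMZ was compared with control per table by limma-trend (limma 3.58.1, R 4.3.3) on log2(FPKM + 1), with no covariates and only entries whose mean reached 1 FPKM. On simulated data, 80.5% and 98.5% of 200 genes changed by 1 (log2) were called among 10021 and 9685 genes, and 4.99% and 1.98% of unchanged ones. The simulated noise was normal and independent between genes, with a spread set by the level alone. Real genes of a level differ in spread, so these shares may not hold for the genes reported here. Alternatives were other pseudocounts, filters, scaling, voom, 1 fit of all libraries, a posterior of 0.99, a replicate block and each library left out. Named genes are the 7 members, Srebf2, Scap, Insig1, Insig2, each listed gene past a threshold, and the 5 most alike genes; others are marked, and some genes of the rule are not reported here. Members and lists were chosen with earlier results of these data known. Each group had 2 libraries; no column was left without a sample or group.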

Additional observations from a re-analysis of the deposited data

How the results depend on the processing

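Under all alternatives that could test them, Cyp51 and Lss kept negative log2 fold changes in both tables; a stricter filter (mean at or over 5 FPKM) dropped both. In 8-cell embryos the 1 member lower past the threshold (Cyp51), the 1 listed gene lower, the 1 listed gene higher and the 632 entries called became 0, 0 and 0 for the first 3 with no filter on low values, 0 members, 0 listed genes lower and 281 entries with the stricter filter, which tests fewer genes, 0 members and 0 listed genes lower with median-ratio scaling, and 2 listed genes higher and 1139 entries with all 8 libraries in 1 fit. The median of the 7 genes, -0.38, was -0.27 with the stricter filter, -0.15 with median-ratio scaling and -0.51 with voom, and Fdft1 turned from -0.03 to 0.22 with median-ratio scaling. Beyond the genes that a filter adds or drops, the cause was not tested.

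With each 8-cell library left out in turn, the lone library of its group being assumed to vary like the other group, the median ran from -0.57 to -0.27, members lower from 0 (without control replicate 1) to 2 (without TMZ library A, Idi1 and Fdps), listed genes lower from 0 to 4, listed genes higher from 0 to 2 and entries called from 276 (without control replicate 2) to 1837 (without TMZ library B). Log2 fold changes ran from -0.20 to 0.58 for Hmgcs1, from -0.57 to 0.029 for Sqle, from -1.04 to 0.29 for Idi1, from -0.27 to 0.21 for Fdft1 and from -0.87 to -0.20 for Fdps.

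In morulae, with 0 members and 2 listed genes lower, 1 listed gene higher and 1733 entries called, 1 member was lower with a pseudocount of 0.1 FPKM and 2 with voom, which also gave 6 listed genes lower and 2 higher. The stricter filter gave 1 listed gene lower and 1058 entries, median-ratio scaling 3 listed genes higher, and all 8 libraries in 1 fit 0 listed genes lower and 902 entries. Same-numbered morula libraries share only a number, their deviations correlating at 0.08 over 2 pairs, and the replicate block gave 2 listed genes higher. No paired analysis was possible because of the unnumbered TMZ columns in 8-cell embryos. With a morula library left out, members lower ran from 0 to 1, listed genes lower from 0 to 6, listed genes higher from 0 to 2, entries called from 786, when TMZ replicate 2 was left out, to 1869, and log2 fold changes from -0.12 to 0.34 for Hmgcs1, from -0.086 to 0.097 for Sqle and from -0.28 to 0.053 for Fdps.

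Between control stages the median of the 7 genes, -0.03, was 0.052 with median-ratio scaling, 0.12 at a posterior of at least 0.99 and from -0.17 to 0.27 with a control library left out. No member was called between control stages under these settings or a pseudocount of 0.1 FPKM, and none reached an adjusted p under 0.05 for the difference of the TMZ effect between stages (limma) with that pseudocount, median-ratio scaling or a library left out; filters and voom were not run for either. Having 2 libraries a group, names inferred without identifiers and low levels of Cyp51 and Lss limit these values.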
